A study of Mus musculus with 36 samples.

Results

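The Wnt5a locus was described here as the H3K27ac peaks that overlap the 1.6 Mb of mouse chromosome 14 from 28700000 to 30300000 (mm9), taken from the peak lists of all 18 libraries. The rule used position only. It gave 1217 peaks of the 732259 in the lists together, or 43 to 86 peaks per list. Stretches covered by peaks of at least 2 libraries were taken as consensus regions, and 106 of the 63594 consensus regions of the genome lay in the window. Acetylation of histone H3 at lysine 27 (H3K27ac) marks active enhancers and promoters, and it was profiled by ChIP-seq in pooled forelimbs of FVB mouse embryos at embryonic day 11.5. Wild-type (WT) forelimbs had 4 libraries. Forelimbs null for the limb enhancer mm1179 had 4, and those null for hs72, hs1262, hs1467, hs1586 or hs1603 had 2 each, with no treatment in any group. Each list comes from a pool of forelimbs, so cells of different kinds within the limb bud cannot be told apart, and p-values measure only the spread between libraries, which may be technical.

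Wnt5a encodes a secreted Wnt ligand that signals mainly through the receptors Ror2 and Ryk and Frizzled proteins, without stabilising beta-catenin. In the limb bud it is expressed most strongly in the distal mesenchyme, where it orients cells of the growing cartilage, and mice that lack it have truncated limbs. In the RefSeq table for GRCm38 its protein-coding neighbours are Erc2, which encodes a protein of the presynaptic active zone, on the left and Cacna2d3, which encodes an auxiliary subunit of voltage-gated calcium channels, on the right. Lrtm1, a leucine-rich repeat gene, follows. That table is of another build than the peak lists, so gene starts other than that of Wnt5a were not placed. Wnt5a itself was placed by an anchor at 29.32 Mb of mm9. A region touching the 5 kb on either side of the anchor was called proximal, and all others distal. For the same reason no peak was assigned to Erc2 or Cacna2d3, and no check against marker genes of the forelimb was made. Wnt5a had no entry in the promoter table used here, so its sequence is not printed.

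The lists carried 4 run tags, which the labels do not give, and these were used as technical batches. Run 1 held replicates 1 and 2 of WT and mm1179. Run 2 held their replicates 3 and 4 and both hs72 libraries. Run 3 held replicate 1 and run 4 replicate 2 of hs1262, hs1467, hs1586 and hs1603, so these lines share no run with WT. Lists held 26550 to 32472 peaks in run 3, 54375 to 58753 in run 4 and 30719 to 45267 in the other runs. Read depth is unknown, because the lists hold no counts. The run 3 lists stood apart in their scores: 1 to 66 of their peaks scored 3100 or more, against 313 to 3835 in each list of the other runs. The score is the authors' own value for a peak and is given here as a percentile, the percentage of peaks of the same list with a lower score, with ties placed midway. Many peaks share the score of 3100, so the highest percentile that a run 4 peak reached in the window was 96.9. Percentiles describe a peak's place within its own list and were not tested between libraries.

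The anchor lay inside a broad domain of H3K27ac, the widest region of the window and the one with the highest mean percentile in WT. The consensus region (region 34, counting from the left) spanned chr14:29313158-29332001, or 18.8 kb, and 15 of 18 libraries called it. Among WT libraries the peak over the anchor was 13.3 kb wide in replicate 1, 13.4 kb in replicate 2, 12.9 kb in replicate 3 and 17.7 kb in replicate 4. Replicate 4 covered the region with a single peak, and replicates 1, 2 and 3 with 3, 2 and 2 peaks. Together these peaks covered 15.5, 15.3, 15.2 and 17.7 kb of region 34 in replicates 1 to 4. In mm1179 forelimbs the peak was 14.3, 12.3, 16.1 and 17.1 kb wide in replicates 1 to 4. The hs72 libraries had peaks of 17.7 and 14.03 kb. The ranges of the 3 groups overlap. In these groups it scored 3100 in every list, at percentiles of 98.5 to 99.5, and no peak of the window scored higher or was wider. It ranked between 27 and 85 in width among all peaks of those lists.

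The left edge of the peak over the anchor was nearly fixed and its right edge was not. In some libraries a further peak covered part of region 34 beyond the peak over the anchor. In mm1179 replicate 2 that peak was 12.3 kb wide, and 2 peaks covered 13.9 kb of the region. In hs1586 replicate 2 the values were 16.3 kb and 2 peaks over 18.2 kb. Over the 15 libraries the left edge lay between 29313106 and 29313642, a spread of 536 bp (SD 157). The right edge lay between 29325828 and 29332001, a spread of 6173 bp (SD 2173), which is 11.5 times that of the left. The same held within each genotype that had 4 libraries, with spreads of 252 and 4842 bp in WT and of 211 and 4795 bp in mm1179. The right edge lay between 29325828 and 29327747 in run 1 and between 29329502 and 29332001 in run 4, which had the longest lists. In run 2 it lay between 29326258 and 29331100, a range that overlaps both. The part of run, list length and the splitting of the domain into several peaks in the spread was not tested. The 7 other regions of the window with the highest WT percentiles did not show a ratio of this size: the right spread was between 0.291 and 2.89 times the left. Their spreads were taken over all 18 libraries from the widest peak in the region, not over 15 libraries from the peak over the anchor.

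**Figure D1:**
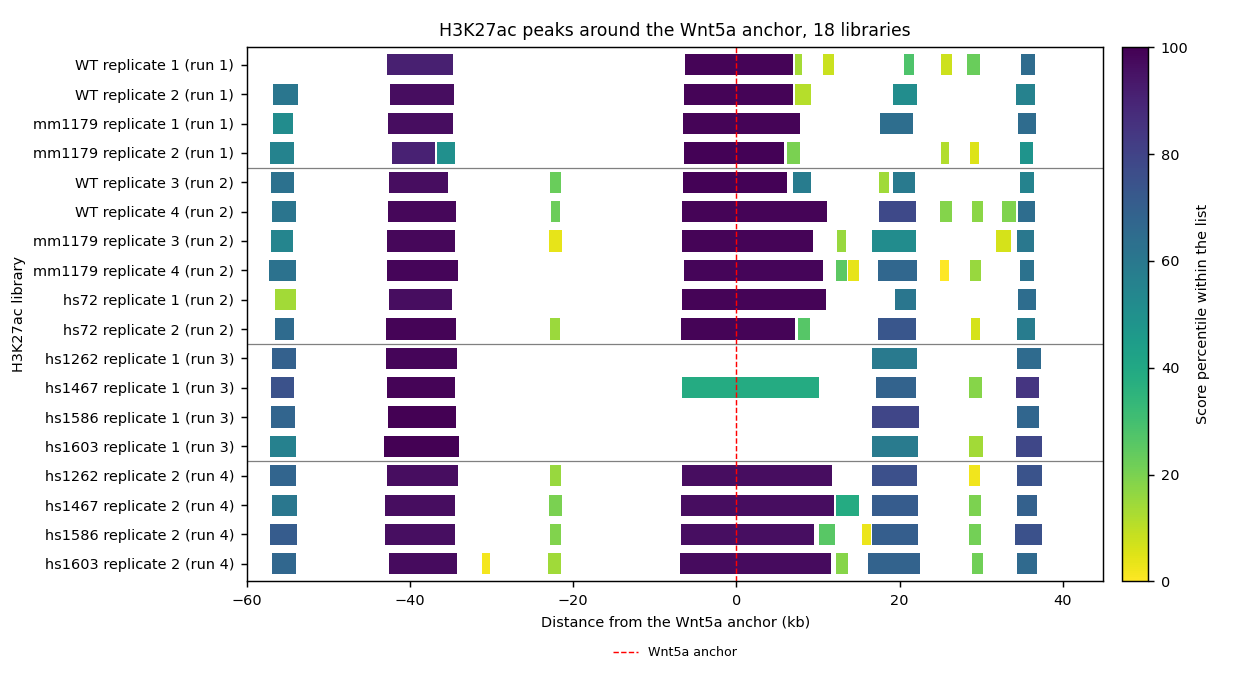
H3K27ac peaks of each library around the Wnt5a anchor, with distance from the anchor in kb on the horizontal axis and 1 row per library, grouped by run. Bars are peaks and their colour is the score percentile within the list. The broad domain over the anchor is present in 15 rows and absent from 3 of the 4 rows of run 3, while peaks on both sides of it are present there.

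The 3 libraries without the domain were hs1262, hs1586 and hs1603 replicate 1, all of run 3. They had no peak at all over the domain. In the tile calls this left a gap of 13 kb that exactly these 3 libraries missed. The adjoining tiles from 29326501 to 29328000 were missed by these 3 and by another library each. The fourth library of that run, hs1467 replicate 1, had a peak of 16.7 kb there, but with a score of 82.72, at the percentile of 38.8. Replicate 2 of the same 4 lines, from run 4, had peaks of 18.4 kb in hs1262, 18.7 kb in hs1467, 16.3 kb in hs1586 and 18.5 kb in hs1603, all scoring 3100. The domain was thus called in at least 1 library of each line, and the missing calls lay in 3 of the 4 run 3 libraries. All 14 libraries of the other runs called the domain. Peaks on either side of it were called in run 3. On the left, region 32 was called in all 4 run 3 libraries at percentiles of 98.5 to 99.9, and on the right, region 38 was called in all 4 at percentiles of 58.9 to 79.3. Across the genome, 142 regions of at least 10 kb had a peak scoring 3100 or more in all 14 libraries of the other runs, and at least 3 run 3 libraries missed 12.7% of these. Without the limit on width it was 9.6% of 250 such regions. Of the regions that these 14 libraries called at any score, at least 3 run 3 libraries missed 16.6% of the 965 that were at least 10 kb wide and 31% of the 18066 that were narrower. A missing call shows that no peak was reported, not that the mark was absent. With 1 library of hs1262, hs1586 or hs1603 left, a spread for the domain in these lines could not be given.

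Ordered by mean width of the peak over the anchor, the lines with at least 2 such peaks were hs1467 at 17.7 ± 1.4 kb (SD, n = 2), hs72 at 15.9 ± 2.6 kb (SD, n = 2), mm1179 at 14.9 ± 2.1 kb (SD, n = 4) and WT at 14.3 ± 2.3 kb (SD, n = 4). The values of neighbours in this order overlapped. The hs1467 libraries came from runs 3 and 4, those of hs72 from run 2, and those of WT and mm1179 from runs 1 and 2. Line and run therefore cannot be told apart in this order, except between mm1179 and WT. The hs1467 mean includes replicate 1, whose peak scored 82.72. By run, the mean was 13331 ± 843 bp in run 1 (SD, n = 4), 15906 ± 2034 bp in run 2 (SD, n = 6) and 17996 ± 1112 bp in run 4 (SD, n = 4).

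To the right of the domain, region 38 at chr14:29336564-29342353 was the nearest region that most libraries called, 17 of 18. It is described here after its values were seen. In WT the peaks covered 1.22, 2.86, 3.92 and 4.64 kb of its 5.79 kb in replicates 1 to 4, at percentiles of 28.0, 51.4, 59.3 and 77.9. In mm1179 they covered 3.98, 0, 5.43 and 4.67 kb, and replicate 2, which has the shortest list of runs 1 and 2, had no call. The ranges overlap. The run 3 and run 4 libraries each covered between 4.92 and 5.79 kb. Regions 35, 36 and 37, between the domain and region 38, were called in 2 to 4 libraries each.

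To the left of the anchor, on the Erc2 side, regions 32 and 26 had the highest mean WT percentiles of the distal regions within 300 kb. Region 32, at chr14:29276867-29285863 and 38.6 kb to the left, was called in all 18 libraries. Its WT percentiles were 91.1, 96.5, 96.9 and 98.3, and its covered length was 7.87 ± 0.49 kb in WT (SD, n = 4), 8.14 ± 0.47 kb in mm1179 (SD, n = 4) and 8.14 ± 0.58 kb in hs72 (SD, n = 2). The values of these groups overlap. Region 30, at chr14:29246753-29257298, was the second widest of the window at 10.5 kb and stood 68.0 kb to the left. It was called in all 18 libraries too, at a mean percentile of 84.0 ± 4.7 in WT (SD, n = 4) and 80.7 ± 9.1 in mm1179 (SD, n = 4). Region 26, at chr14:29183492-29191722 and 132.4 kb to the left, reached 95.7 ± 2.5 in WT and 94.7 ± 3.6 in mm1179 (SD, n = 4 each). In the 3 run 3 libraries without a domain peak, region 30 held the widest peak of the window, at 10.1, 9.53 and 10.4 kb.

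Further left, region 11 at chr14:28976396-28980399 was narrow and strong, 4.0 kb wide and 341.6 kb from the anchor. All 18 libraries called it at percentiles between 89.6 and 99.0. Both of its edges were stable, with spreads of 630 bp on the left and 469 bp on the right. Region 16, at chr14:29050743-29056014, was weaker, with a WT mean of 84.5 ± 7.2 (SD, n = 4).

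On the Cacna2d3 side the strongest region was region 75, at chr14:29781692-29789312 and 465.5 kb to the right. After the domain it had the highest mean percentile in WT, 97.2 ± 1.2 (SD, n = 4), against 96.6 ± 1.5 in mm1179 (SD, n = 4) and 98.7 ± 0.3 in hs72 (SD, n = 2). In run 2, which held both hs72 libraries, the percentiles were 97.50 and 98.38 in WT, 97.08 and 98.51 in mm1179 and 98.49 and 98.86 in hs72. The hs72 values thus overlapped those of mm1179 and lay above those of WT, and this was not tested. Region 75 was called in all 18 libraries, and its lowest percentile in any of them was 95.0. Its covered length was 5.02 ± 0.78 kb in WT and 5.74 ± 0.66 kb in mm1179 (SD, n = 4 each). Region 51, at chr14:29475894-29480030, and region 94, at chr14:29922959-29929601, had WT means of 85.8 ± 4.1 and 84.5 ± 6.5 (SD, n = 4 each). Region 94 fell to a percentile of 44.2 in hs1586 replicate 1, its lowest value.

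**Figure D2:**
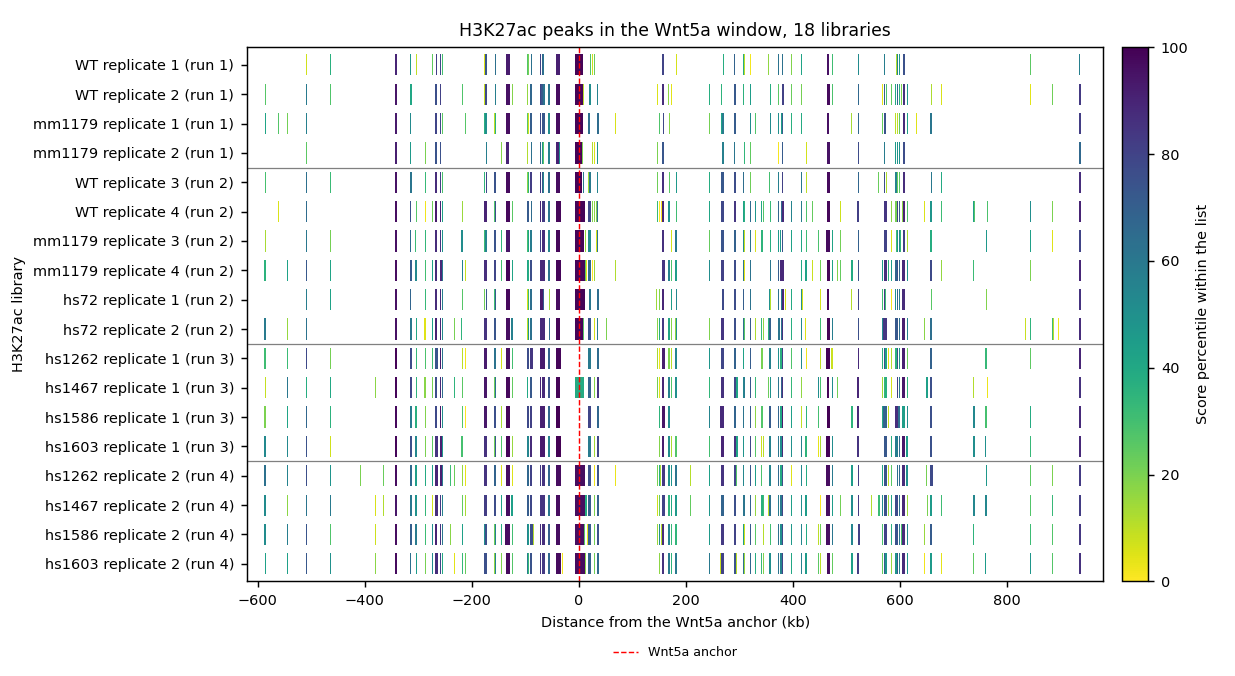
All H3K27ac peaks of the window, with distance from the Wnt5a anchor in kb on the horizontal axis and 1 row per library, grouped by run. Bars are peaks, coloured by score percentile within the list. The strongest bars recur at the same places in every run, at 341.6, 132.4 and 38.6 kb to the left and 465.5 kb to the right, and the broad domain at the anchor is missing in 3 libraries of run 3.

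Of the 106 regions, 26 (24.5%) were called in all 18 libraries, against 16.5% of all regions of the genome. All 4 WT libraries called 32 of the 106 (30.2%), against 36.4% of all regions. The window thus lay above the genome for the one count and below it for the other, and neither share was tested. Peaks covered 155.2 kb of the window on average in WT, more than in 95.2% of 1554 stretches of the same length laid end to end along the autosomes, whose median was 41.7 kb.

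The regions called everywhere were wider and stronger than the rest. The 26 called everywhere measured 4310 bp at the median, and the median over them of a region's median percentile was 79.3. The 31 regions called in 2 to 4 libraries (29.2%, against 24.5% of all regions) measured 1333 bp at the median, with a median percentile of 15.8. Width is partly set by the number of libraries, because a region extends as far as any 2 lists do. Over the window, 23 regions (21.7%) had no WT call, against 23.5% of all regions, and 4 (3.77%) were called in run 4 alone, against 7.66%. By distance, 5 of 17 distal regions within 100 kb of the anchor were called in all 18 libraries, 7 of 27 farther to the left and 14 of 61 farther to the right. The window also held long stretches with no consensus region. The longest, 78.9 kb, ran from 30083895 to 30162782, and another of 71.9 kb ran from 29393264 to 29465167, which begins 73.3 kb to the right of the anchor. At the borders of the window, the nearest regions inside were called in 15 libraries on the left and 18 on the right. The nearest outside were called in 10 and 3.

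**Figure D3:**
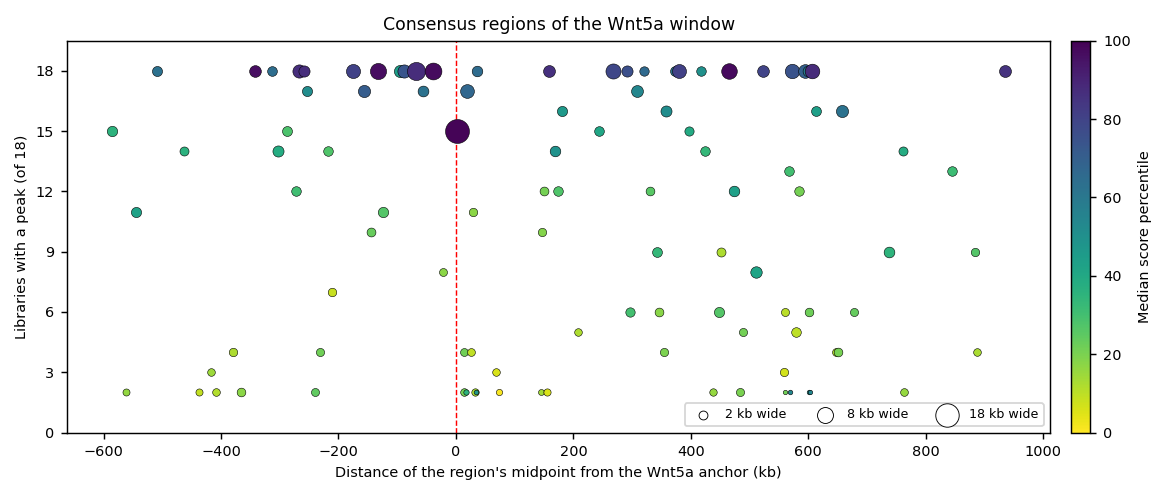
Each circle is a consensus region of the window, placed by the distance of its midpoint from the Wnt5a anchor in kb and by the number of libraries with a peak in it. Circle size is the width and colour is the median score percentile over the libraries that called it. The widest circle, the domain at the anchor, stands at 15 libraries, and 26 regions stand at 18.

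The comparison of mm1179 with WT was the one with 4 libraries on each side, and it asked how H3K27ac at Wnt5a compares with and without that enhancer. The groups overlapped in each of the 4 window measures. The window held 54, 62, 59 and 77 peaks in WT replicates 1 to 4 and 59, 43, 65 and 74 in mm1179. The means were 63.0 ± 9.9 and 60.3 ± 13.0 (SD, n = 4 each), and the exact permutation p (two-sided) was 0.857, also after Benjamini-Hochberg adjustment over the 4 window measures. Covered length was 118.1, 152.5, 145.1 and 205.3 kb in WT and 147.9, 103.2, 193.7 and 227.3 kb in mm1179. The means were 155.2 ± 36.5 and 168.0 ± 54.1 kb (SD, n = 4 each; exact permutation p = 0.743, adjusted 0.857). Taken as a share of each list's whole covered length, the window held 0.178% ± 0.019 in WT and 0.186% ± 0.016 in mm1179 (SD, n = 4 each; exact permutation p = 0.486, adjusted 0.857). For the peak over the anchor the means of 14.3 and 14.9 kb had an exact permutation p of 0.771 (adjusted 0.857, n = 4 each). These differences were smaller than the spread between libraries.

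Within run 1 the mean number of peaks was 51 in mm1179 and 58 in WT, and within run 2 it was 69.5 and 68. Mean covered length was 125.6 kb in mm1179 and 135.3 kb in WT in run 1, and 210.5 and 175.2 kb in run 2. The sign of the difference thus changed between runs for both measures. The share of covered length was 0.174% in mm1179 and 0.167% in WT in run 1, and 0.198% and 0.190% in run 2. The peak over the anchor measured 13.3 kb in mm1179 and 13.4 kb in WT in run 1, and 16.6 and 15.3 kb in run 2. All these within-run exact permutation p-values (n = 2 each) lay between 0.667 and 1, where 0.333 is the smallest possible. Without mm1179 replicate 4 the difference in covered length (mm1179 minus WT) was -6.99 kb and that at the anchor -0.088 kb, and without WT replicate 4 or mm1179 replicate 2 the number of peaks was higher in mm1179, by 1.92 and 3.0.

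Region by region, no region of the window was called in all 4 libraries of WT and none of mm1179, or the reverse. Over the genome these were 0.0769% and 0.0348% of 54583 regions tested. By Fisher's exact test, adjusted over all regions after Benjamini and Hochberg, none of the 95 window regions with a call in either group, and none of the 54583 of the genome, passed 0.05, a result that the design fixed. None of these 95 had an unadjusted p under 0.05 either, and the smallest was 0.143. An unadjusted Fisher p under 0.05 takes a call in all 4 libraries of a genotype and none of the other. The result therefore only restates that no such region was found in the window. With 4 libraries a side this test cannot go below 0.0286 before adjustment, which is too large to pass over this many regions. Over the genome 61 regions had an unadjusted p under 0.05. The number of window regions called was 43, 55, 51 and 71 in WT and 50, 37, 60 and 71 in mm1179. As a share of the window this was 40.6%, 51.9%, 48.1% and 67.0% in WT, against 50.1%, 53.2%, 53.1% and 61.6% of all regions in the same lists. In mm1179 it was 47.2%, 34.9%, 56.6% and 67.0%, against 51.3%, 42.2%, 54.3% and 65.0%. Without mm1179 replicate 1, 1 region was called in the other 3 mm1179 libraries and in no WT library. It was region 25, which 10 of the 18 libraries called, at a mean percentile of 27.7 in mm1179. The share over the genome at this setting is not given here, so the count is not read as a result about the window.

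**Figure D4:**
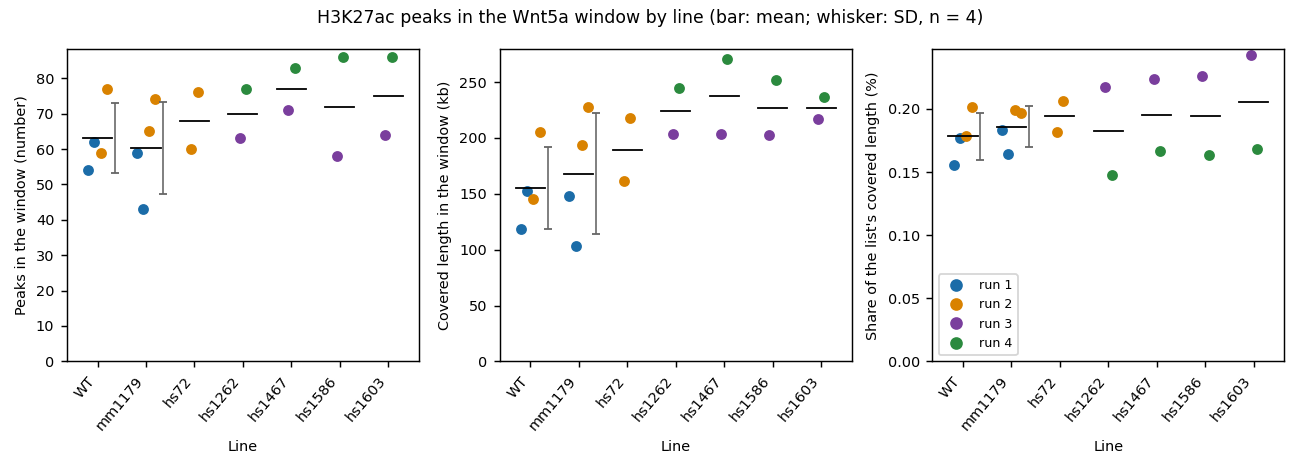
Number of peaks, covered length in kb and share of the list's covered length in percent for the window, by line. Points are libraries coloured by run, bars are means and whiskers are the SD of the lines with 4 libraries. WT and mm1179 points overlap in all 3 panels, and the run 3 points have the highest shares, at 0.218% to 0.242%.

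The hs72 libraries lay inside the range of the other run 2 libraries for peaks and covered length. They had 60 and 76 peaks, and their covered length was 161.2 and 218.0 kb. The WT libraries of that run had 59 and 77 peaks over 145.1 and 205.3 kb. Those of mm1179 in run 2 had 65 and 74 peaks over 193.7 and 227.3 kb. The share of covered length was 0.182% and 0.207% in hs72, 0.178% and 0.202% in WT and 0.199% and 0.197% in mm1179. The share of hs72 replicate 2 was thus the highest of run 2, above the range of the WT and mm1179 libraries. No test was made of 2 against 2 libraries.

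The 4 lines of runs 3 and 4 differed between their replicates by run. Replicate 1 of hs1262, hs1467, hs1586 and hs1603 had 63, 71, 58 and 64 peaks in the window and replicate 2 had 77, 83, 86 and 86. Their covered lengths were 202.3 to 217.3 kb in run 3 and 237.1 to 270.9 kb in run 4. As a share of the list, the order was the opposite, with 0.218% to 0.242% in run 3 and 0.147% to 0.168% in run 4. The run 3 libraries thus gave the window its largest shares among the 18 libraries although 3 of them had no peak at the Wnt5a domain. Run and line cannot be told apart in any comparison of these lines with WT.

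Deleted DNA leaves no reads, so tiles of 500 bp were searched for gaps shared by the libraries of 1 line. Only tiles that at least 14 libraries called could be searched, and 119 of the 3201 tiles of the window were called in all 18. Tiles called in fewer than 14 libraries could not show such a gap. Among the tiles searched, no stretch was missed by all libraries of a line and called in every other library. Of 98 stretches that 1 to 4 libraries missed, the longest was the 13-kb gap at the Wnt5a domain in run 3, and the next was 2.0 kb in WT replicate 1 alone.

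The following gap was missed by a pair of libraries of different lines and runs. The stretch chr14:29911501-29913000, 592.3 kb to the right of the anchor and in region 89, was called in 16 libraries. The libraries labelled hs1262 replicate 2 (run 4) and hs1467 replicate 1 (run 3) were the ones without a peak there. In the whole genome it was the sole stretch that exactly these 2 libraries missed and the other 16 called. It was singled out after its values were seen. Other pairs from different lines also missed stretches of the window. WT replicate 1 and mm1179 replicate 2 missed 1.5 kb from 29977501. A stretch of 1 kb from 29501501 was missed by mm1179 replicate 2 (run 1) and hs1586 replicate 1 (run 3). How many stretches such pairs missed over the genome was not counted. At the stretch from 29911501, the peaks of the 16 libraries that crossed it had percentiles between 9.94 and 87.1, with a median of 47.6. In WT they had percentiles of 11.99, 39.5, 54.9 and 20.5, so the feature itself was of modest rank. Their partners by label did have a peak: hs1262 replicate 1 had one of 2.95 kb at the percentile of 34.8, and hs1467 replicate 2 one of 5.72 kb at 77.1. In both libraries with the gap the next peak to the right was present, beginning at 29913667 in hs1262 replicate 2 and at 29913735 in hs1467 replicate 1, at percentiles of 63.0 and 80.5. The gap therefore did not follow the labelled lines, and whether the labels, the alleles or the peak calls account for it was not tested. No test between groups rests on these 2 libraries.

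**Figure D5:**
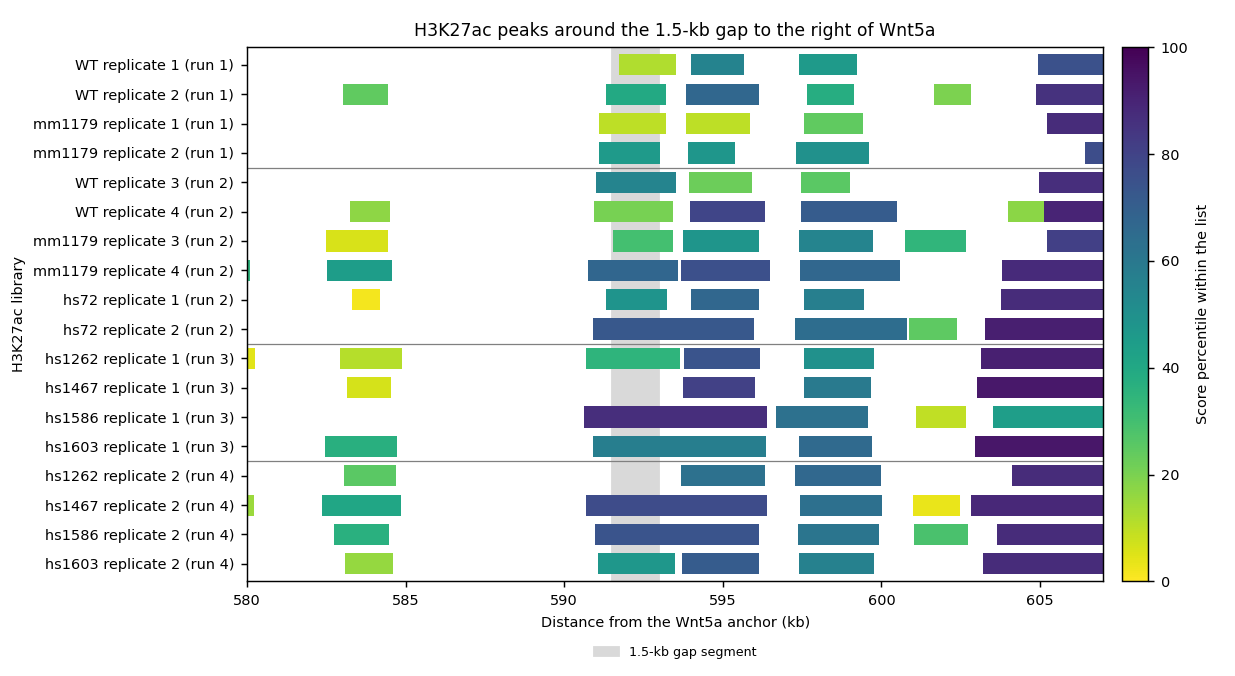
H3K27ac peaks around the 1.5-kb stretch (grey) that hs1262 replicate 2 and hs1467 replicate 1 did not call, with distance from the Wnt5a anchor in kb on the horizontal axis and 1 row per library, grouped by run. Bars are peaks, coloured by score percentile within the list. All 16 other rows have a bar in the grey stretch, and all 18 rows have a bar farther to the right.

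Likeness to the Wnt5a domain was measured by Spearman's correlation over the 15 libraries with a domain peak (the others give no domain value), among the 26 regions called everywhere. On score percentiles it did not exceed 0.0929, reached by region 86, followed by region 70 at -0.0857 and region 68 at -0.121. In 14 of the 15 libraries the domain scored 3100, so its percentile there reflects how many peaks of the list share that score. On covered length, a measure added after the data had been seen, region 28 at chr14:29223057-29227497 came first with rho = 0.886, followed by regions 26 and 17 at 0.814 each, and region 11 had the same value. The libraries differ in list length, which all these regions share.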

How the data were processed

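H3K27ac peak lists of 18 forelimb libraries were used, and the 18 input samples were not used here. The submitters' processing notes name MACS 1.4.2, Bowtie 0.12.8, cutadapt 1.1, bcl2fastq 2.17, CASAVA and the build mm9. Their settings, and whether input entered peak calling, are not given in the sources used here. The deposited lists, 1 per library, give a position and a score per peak, from 40 to 3233. No lists were identical. Without read counts no counting interval was computed.

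A region counted as called with an overlap of at least 1 bp, and a tile of 500 bp with at least 250 bp covered. Gap searches took tiles that at least 14 libraries called. WT and mm1179 were compared by exact two-sided permutation over 70 arrangements. Named regions were the proximal one, the 8 with the highest mean WT percentile and the 5 widest, 9 in all. The 3 regions most like the domain are named by Spearman's correlation alone. Lists of other Wnt5a pathway genes and promoter motifs were not run without mm9 gene positions or a Wnt5a promoter entry. Procedures were tested on simulated data. The members and lists were chosen with earlier results of these data known. Computations ran in Python 3.11.15 with scipy 1.17.1 and numpy 2.4.6, and figures in matplotlib 3.10.9. Coordinates count from 1.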

Additional observations from a re-analysis of the deposited data

Results flagged for a closer look

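The covered length at the Wnt5a anchor in WT replicate 4, 17.71 kb, stood far from the other 3 WT libraries, which lay between 12.9 and 13.4 kb. With the small peaks beside it counted, region 34 was covered over 17.71 kb in that library, against 15.2 to 15.5 kb in the others. These are 2 forms of the same observation. In run 2, which held WT replicate 4, the peak over the anchor was 16.1 and 17.1 kb wide in mm1179 and 17.7 and 14.03 kb in hs72. Its width there was thus not apart from that of other libraries of its run. Groups of 4 libraries were checked in 28 cases, and chance flags about 1 in 20.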

How the results depend on the processing

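No p-value of the mm1179 comparison was under 0.05 in any of the alternatives, where it ranged from 0.2 to 1 by exact permutation. Among 108 values under other settings, 7 differences turned in sign and 8 counts changed by over 1.5 times or from 0. The other 93 were differences of the same sign, whatever their size, or counts nearer to the reported one. The cause was not tested, except that fewer peaks or libraries change a count by construction. The difference in peaks, -2.75, was 6.0 with a minimum score of 100 and 4.75 on lists of equal length (26550 peaks). With 1 library left out it ranged from -7.33 to 3.0, with 1.92 without WT replicate 4 and 3.0 without mm1179 replicate 2. The difference in covered length, 12.8 kb, ranged from -6.99 kb (without mm1179 replicate 4) to 34.4 kb and was 0.398 kb without WT replicate 1. That at the anchor, 0.627 kb, ranged from -0.088 kb (without mm1179 replicate 4) to 1.76 kb and was -0.238 kb within 10 kb of the anchor. The difference in share ranged from 0.000277 (without WT replicate 1) to 0.0156 percentage points. Regions called in all 18 libraries numbered 15 with the minimum score, 11 when peaks had to cover 50% of the region, and 26 to 29 with 1 library left out. Those called in all WT libraries numbered 20, 21 and 33 to 41. Regions called in mm1179 alone numbered 0 or 1 with 1 library left out, a setting for which no share over the genome is given. Gap stretches, 98 in all, numbered 64 with tiles of 1000 bp and 53 with the minimum score. With run 3 left out, a setting added after seeing the data, 1 stretch was lost in a line, that in hs1262, which then rests on replicate 2 alone.

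WT and mm1179 libraries of the same number come from the same run. Over all regions, deviations from the group means correlated within these pairs at 0.161, -0.0361, -0.0279 and 0.265, so the numbers were not taken as pairs, and 1 of 4 WT libraries correlated best with its own number. With the replicate block, the exact p was 0.875 for peaks (-2.75), 0.625 for covered length (12.8 kb), 0.5 for the share (0.00778), 0.75 at the anchor (0.627 kb) and 1 for the regions called per library (-0.5). With 4 pairs the smallest p is 0.125, so the block could make no call at 0.05. Missing peaks cannot be read as missing acetylation at an unknown depth.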
